A study of Mus musculus with 30 samples.

Results

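Serine, threonine and glycine breakdown was followed through 10 enzyme genes, named by symbol. They were the serine dehydratases Sds and Sdsl, threonine dehydrogenase (Tdh), glycine C-acetyltransferase (Gcat), the glycine cleavage genes Gldc, Amt and Gcsh, dimethylglycine dehydrogenase (Dmgdh), sarcosine dehydrogenase (Sardh) and glycerate kinase (Glyctk). Of these, 9 were found among the 14173 genes of the count table, and Tdh was not analysed here. All 9 passed the filter on low counts in every comparison.

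Liver RNA was sequenced from the 3′ end of transcripts in 30 male C57BL6/J mice, 6 per diet, each killed at 6 months of age after a short fast. All mice were first fed 20% casein or 20% soy and were given their own diet at 12 weeks of age, for 12 weeks. Cas-20% held 20% casein with 0.57% methionine and 0.41% cysteine by weight, and Cas-5% held 5% casein with 0.15% methionine and 0.1% cysteine. Soy-20% held 20% soy protein with 0.22% of each. Soy-20% + SAA was the same diet with methionine and cysteine added, to 0.58% and 0.41%. Soy-10% held 11.5% soy protein with 0.13% of each, which set its methionine near that of Cas-5%. Cas-5% therefore differed from Cas-20% both in protein and in sulfur amino acids, and Soy-10% differed from Soy-20% + SAA in the same 2 ways.

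Serine dehydratase deaminates serine to pyruvate, which can enter gluconeogenesis. Threonine is oxidized in mitochondria to 2-amino-3-ketobutyrate, which Gcat splits into glycine and acetyl-CoA. Glycine is in turn split by the glycine cleavage system, in which Gldc removes the carboxyl group, Gcsh carries the remaining aminomethyl group on its lipoyl arm, and Amt hands the 1-carbon unit to tetrahydrofolate. Dmgdh and Sardh are mitochondrial flavoproteins that strip methyl groups from dimethylglycine and then from sarcosine, leaving glycine. Glyctk phosphorylates glycerate, the product of serine breakdown through hydroxypyruvate.

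The members lie on 7 chromosomes, as annotated on GRCm38 in the deposited table. Sds (chr5:120476526-120483932, plus strand) and Sdsl (chr5:120458186-120472810, minus strand) are neighbours 3716 bp apart, read away from each other. The remaining genes are Gcat (chr15:79030874-79038353, plus strand), Gldc (chr19:30098447-30175429, minus strand), Amt (chr9:108296853-108302302, plus strand) and Gcsh (chr8:116981810-116993537, minus strand). Dmgdh (chr13:93674433-93752833, plus strand), Sardh (chr2:27188393-27248337, minus strand) and Glyctk (chr9:106152857-106158138, minus strand) complete the list.

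Promoters of 7 members were found in RefSeq (GRCm38.p6), and 4 are printed because these genes moved in different ways, Gldc, Gcat and Dmgdh with at least 1 restricted diet and Glyctk with none. Each run is the sequence upstream of the start site on the strand of the gene. The coordinates are chr19:30175442-30175691 (Gldc, minus strand), chr15:79030624-79030873 (Gcat, plus strand), chr13:93674186-93674432 (Dmgdh, plus strand) and chr9:106158139-106158388 (Glyctk, minus strand). Capitals mark a GC box (GGGCGG or its complement CCGCCC) or a CCAAT box (CCAAT or its complement ATTGG), searched on both strands.
Gldc: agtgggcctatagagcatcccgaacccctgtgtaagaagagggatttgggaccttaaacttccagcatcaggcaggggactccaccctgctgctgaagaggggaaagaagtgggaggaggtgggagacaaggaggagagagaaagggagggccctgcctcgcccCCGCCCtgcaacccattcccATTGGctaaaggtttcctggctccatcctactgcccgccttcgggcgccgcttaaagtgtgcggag
Gcat: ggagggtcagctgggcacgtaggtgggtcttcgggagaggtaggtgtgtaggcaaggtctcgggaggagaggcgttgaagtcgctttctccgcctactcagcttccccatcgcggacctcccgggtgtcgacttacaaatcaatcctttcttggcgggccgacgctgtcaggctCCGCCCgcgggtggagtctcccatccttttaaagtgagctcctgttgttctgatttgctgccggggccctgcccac
Dmgdh: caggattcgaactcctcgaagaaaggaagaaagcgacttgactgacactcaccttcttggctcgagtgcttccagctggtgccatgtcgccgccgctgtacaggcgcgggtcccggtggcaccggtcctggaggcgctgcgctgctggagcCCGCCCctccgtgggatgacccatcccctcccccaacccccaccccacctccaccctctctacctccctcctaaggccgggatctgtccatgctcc
Glyctk: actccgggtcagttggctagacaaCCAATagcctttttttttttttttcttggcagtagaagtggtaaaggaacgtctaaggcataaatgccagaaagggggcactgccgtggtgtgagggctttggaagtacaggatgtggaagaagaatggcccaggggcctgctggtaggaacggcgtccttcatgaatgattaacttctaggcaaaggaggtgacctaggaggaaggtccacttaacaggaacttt

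In the 250 bases upstream of the RefSeq start, a GC box was found in 5 of the 7 promoters (Gldc, Amt, Gcsh, Gcat and Dmgdh), against 32.7% of 32851 mouse promoters. The Sardh window lay inside the gene as placed above. For Amt, Gcsh and Dmgdh, 198, 211 and 247 of the 250 bases lay outside it. A CCAAT box was found in 4 (Gldc, Amt, Gcsh and Glyctk), against 33.8%. The letters TGATGCAA, a composite element of ATF4 and C/EBP factors held by 0.791% of promoters, were in none of the 7 windows. Neither were the E-box CACGTG (6.02%), TGACGTCA (1.55%), its shorter form TGACG (17.8%), CAAAGTCCA (0.384%) or TATAAA (12.4%). These matches describe the letters of the windows and were not tested for binding.

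Libraries held between 7694015 and 14565542 counts. All 8 hepatocyte markers were in the table, of which 2 were lower and 1 higher in Cas-5% than in Cas-20%, where 24.6% of all genes were called. In 4 of the 6 Soy-20% + SAA livers, numbered 3 to 6, genes with GC-rich 3′ ends were higher, by 0.0543, 0.171, 0.167 and 0.19 log2 units per 10% GC. The other 26 livers had slopes between -0.0581 and 0.022. Called differences that rest on Soy-20% + SAA, the order of the diet means and the correlations between members are therefore given with and without livers 3 to 6. Without them only livers 1 and 2 of that diet remain, so a lost call does not show that a difference was absent. Soy-10% liver 4 held pancreatic acinar transcripts, with a summed normalized count of 10100 over 11 markers against 628.8 or less in the other livers. Without this liver the counts of members called below were the same for Soy-10% against Soy-20% + SAA, Cas-5% against Soy-10% and the difference of effects against Soy-20% + SAA, and 1 in place of 2 for Soy-10% against Soy-20%. The deposited counts were tested with edgeR's quasi-likelihood test, and every adjusted p below is a Benjamini-Hochberg value over all genes of that comparison. Levels are normalized counts, meaning counts divided by a size factor for each library. In whole liver, fewer cells of a type and less RNA per cell cannot be told apart.

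Casein restriction lowered most of the group. Of the 9 genes, 7 were lower in Cas-5% than in Cas-20% at an adjusted p of 0.05 and none was higher, where 24.6% of 12076 genes were called in either direction and 13.2% lower. The median log2 fold change of the 9 was -0.73, and that of all genes 0.02. In 5 of the 9 every Cas-5% liver lay below every Cas-20% liver, against 7.73% of all genes. Among the 7, log2 fold changes ran from -2.06 for Sds and -1.13 for Dmgdh to -0.23 for Gcsh.

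**Figure D1:**
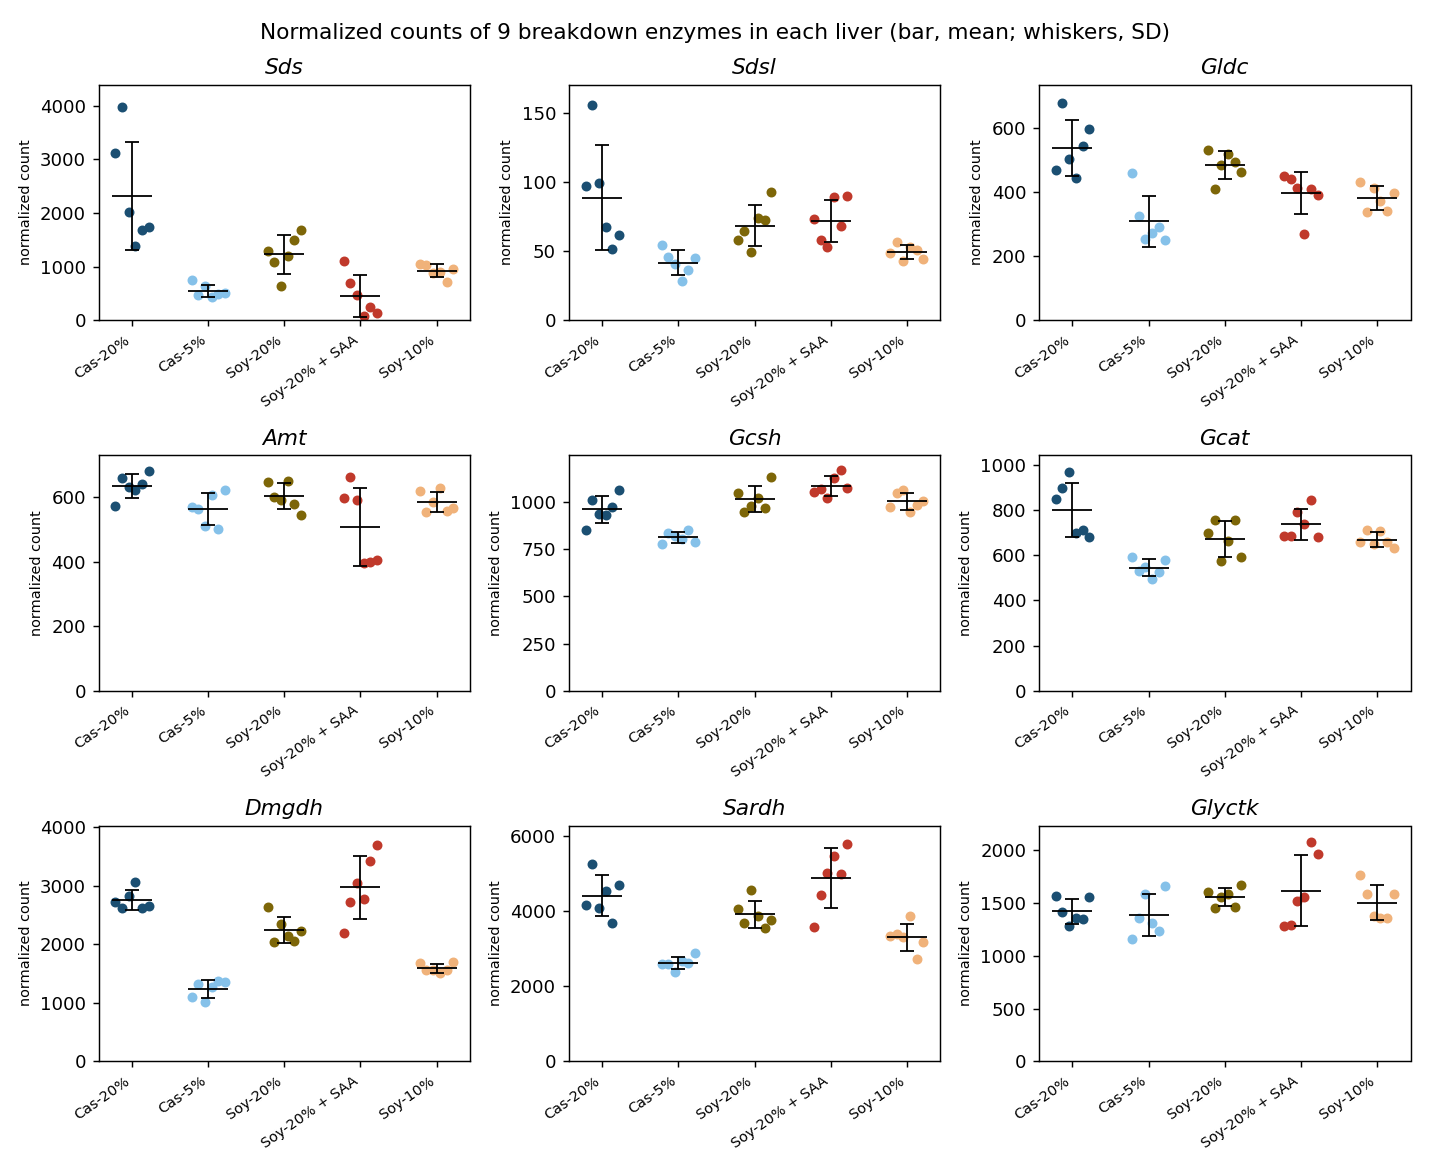
Normalized count (linear axis from 0) of each of 9 enzymes in each liver, 6 per diet on the horizontal axis, with a line at the mean and whiskers of 1 SD. All 6 Cas-5% livers lie below all 6 Cas-20% livers for Sds, Gcsh, Gcat, Dmgdh and Sardh, while the diets overlap for Glyctk.

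Sds, which turns serine into pyruvate and ammonia, showed the widest range of the group. Its normalized count in Cas-20% livers ran from 1385 to 3984 with a median of 1879. In Cas-5% livers it ran from 437.1 to 743 with a median of 505.6. The 2 diets did not overlap, and the spread among Cas-20% livers (SD 1013 around a mean of 2321) was far wider than among Cas-5% livers (SD 115.1 around 549.4). The log2 fold change was -2.06 ± 0.28 (SE, adjusted p = 0.00028), a 4.22-fold difference between the means.

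The soy diets placed Sds in a different order. In Soy-20% it ran from 644.1 to 1679 with a median of 1242, and in Soy-10% from 722.3 to 1058 with a median of 926.5. The Soy-10% livers all fell within the range of the Soy-20% livers, and the log2 fold change was -0.41 ± 0.20 (adjusted p = 0.45). Without Soy-20% liver 3, the lowest of its diet, it was -0.54 with an adjusted p of 0.033. In Soy-20% + SAA livers 1 to 6 Sds stood at 1111, 694.5, 481.1, 85.29, 244.2 and 128.8. Livers 1 and 2 lay within the Soy-20% range, and livers 3 to 6 all lay below every liver of Soy-20% and of Soy-10%.

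Livers 3 to 6 averaged 26% of livers 1 and 2 for Sds. The last 200 nt of Sds hold 50.5% GC, more than 84.7% of genes. Relative to livers 1 and 2, livers 3 to 6 averaged 133% for Sardh (51% GC), 132% for Dmgdh (34.5% GC) and 71.1% for Amt (41% GC). The cause of the low Sds values was not tested. Against Soy-20% + SAA, Soy-10% had a Sds log2 fold change of 1.02 ± 0.54 (adjusted p = 0.21). It was 1.51 without Soy-20% + SAA liver 1 (adjusted p = 0.048) and 0.03 without livers 3 to 6 (adjusted p = 0.97). With the GC slope of each library as a covariate it was 0.10 (adjusted p = 0.92).

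The 3′ end of Sds shares 651 bases with Plbd2, a gene on the opposite strand, and the strand setting of the counting is not given in the sources used here. If strand was not used, reads of the 2 genes there could not be told apart. Plbd2 averaged between 596.2 and 699.9 over the 5 diets and was called in none of the 6 comparisons between diets, with adjusted p between 0.13 and 0.92.

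Sdsl, a related dehydratase of serine and threonine, was counted at a much lower depth. Its normalized count ran from 51.78 to 156 (median 82.35) in Cas-20% and from 28.82 to 54.41 (median 42.82) in Cas-5%. All but 1 of the Cas-5% livers lay below every Cas-20% liver, and the log2 fold change was -1.08 ± 0.25 (adjusted p = 0.0049). In the soy diets the medians were 50 in Soy-10%, 68.64 in Soy-20% and 70.81 in Soy-20% + SAA. Soy-10% was lower than Soy-20% + SAA by a log2 fold change of -0.55 ± 0.15 (adjusted p = 0.021). That call was lost without Soy-20% + SAA liver 6 (-0.47, adjusted p = 0.057), without livers 3 to 6 (-0.43, adjusted p = 0.24) and with the GC slope as covariate (-0.33, adjusted p = 0.36).

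Gcat, which completes mitochondrial threonine breakdown to glycine, ran from 681 to 968.4 (median 779.5) in Cas-20% and from 496.7 to 593.6 (median 539.5) in Cas-5%. The diets did not overlap, and the log2 fold change was -0.54 ± 0.09 (adjusted p = 0.00017). In the soy diets Gcat gave no call. It ran from 632.6 to 711.2 in Soy-10%, from 572.8 to 757.6 in Soy-20% and from 679.3 to 845.5 in Soy-20% + SAA. Soy-10% differed by -0.01 ± 0.07 from Soy-20% (adjusted p = 0.97) and by -0.14 ± 0.07 from Soy-20% + SAA (adjusted p = 0.17; -0.04 and 0.87 without livers 3 to 6). A second gene model of the same name overlaps Gcat on the same strand over 7453 bases, so how reads were assigned between the models is uncertain.

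The 3 glycine cleavage genes did not move to the same degree. Gldc, the decarboxylase, ran from 444 to 678.7 (median 523.9) in Cas-20% and from 252.6 to 462 (median 281.5) in Cas-5%. Only Cas-5% liver 1, at 462, overlapped the Cas-20% livers, and the next highest Cas-5% liver stood at 326.9. The log2 fold change was -0.79 ± 0.15 (adjusted p = 0.0012), and -0.94 without that liver (adjusted p = 5.8e-06).

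Gldc was also lower in Soy-10%, at 338.2 to 433.5 (median 385.7), than in Soy-20%, at 409.7 to 533.1 (median 489.8). The log2 fold change was -0.34 ± 0.08 (adjusted p = 0.036), and 4 of 6 Soy-10% livers lay below every Soy-20% liver. The call was lost in 6 of 12 fits that each left out 1 liver. These were the fits without Soy-20% livers 1, 4 and 5 (adjusted p = 0.1, 0.09 and 0.052) and without Soy-10% livers 2, 4 and 5 (adjusted p = 0.11, 0.066 and 0.11), with log2 fold changes between -0.34 and -0.31. It was also lost in a fit over all 30 livers (adjusted p = 0.3) and with the GC slope as covariate (adjusted p = 0.065). In Soy-20% + SAA it ran from 270.3 to 450.1 (median 413.7), and Soy-10% differed from that diet by -0.06 (adjusted p = 0.76), or by -0.23 without livers 3 to 6 (adjusted p = 0.28).

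Gcsh, the lipoyl carrier, ran from 852.1 to 1061 in Cas-20% and from 778.6 to 851.6 in Cas-5%, close together but without overlap. Its log2 fold change was -0.23 ± 0.06 (adjusted p = 0.013), and -0.24 with a replicate block and the GC slope (adjusted p = 0.052). Amt, the aminomethyltransferase, ran from 571.7 to 678.8 in Cas-20% and from 500.4 to 620.5 in Cas-5%, and its log2 fold change was -0.16 (-0.30 to -0.02 at 2 SE either side, adjusted p = 0.11). In the soy comparisons neither gene was called. The Gcsh value of Soy-10% against Soy-20% + SAA was -0.12 (adjusted p = 0.19), and -0.09 without livers 3 to 6 (adjusted p = 0.64). Amt stood at 595.3, 661.4 and 590.5 in Soy-20% + SAA livers 1 to 3 and at 393.9, 399.9 and 403.3 in livers 4 to 6, the lowest 3 of all 30. The Amt log2 fold change of Soy-10% against Soy-20% + SAA, 0.20 (adjusted p = 0.28), was -0.11 without livers 3 to 6 (adjusted p = 0.57).

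Dmgdh was the member lowered by both proteins in all 3 comparisons of a restricted diet with its controls. Its normalized count ran from 2613 to 3062 (median 2690) in Cas-20% and from 1008 to 1374 (median 1299) in Cas-5%. In the soy diets it ran from 1505 to 1690 (median 1560) in Soy-10%, from 2032 to 2630 (median 2186) in Soy-20% and from 2193 to 3698 (median 2914) in Soy-20% + SAA. In each of the 3 comparisons all 6 restricted livers lay below all 6 control livers.

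The log2 fold change of Dmgdh was -1.13 ± 0.08 with casein restriction (adjusted p = 1.1e-08). It was -0.90 ± 0.10 for Soy-10% against Soy-20% + SAA (adjusted p = 0.00017) and -0.49 ± 0.07 against Soy-20% (adjusted p = 9e-04). Without Soy-20% + SAA livers 3 to 6, in which Dmgdh averaged 132% of livers 1 and 2, the second value was -0.63 (adjusted p = 0.00073). All 3 calls were kept in every fit that left out 1 liver.

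Sardh, which acts after Dmgdh, ran from 3683 to 5250 (median 4349) in Cas-20% and from 2382 to 2886 (median 2609) in Cas-5%, without overlap. The log2 fold change was -0.73 ± 0.08 (adjusted p = 2.2e-06). The soy medians were 3320 in Soy-10%, 3818 in Soy-20% and 5010 in Soy-20% + SAA, in the same order as those of Dmgdh. Soy-10% was lower than Soy-20% + SAA by a log2 fold change of -0.57 ± 0.11 (adjusted p = 0.0037), with 5 of 6 livers below every control liver. Without livers 3 to 6 the value was -0.29 and the call was lost (adjusted p = 0.2), as it was with the GC slope as covariate (-0.29, adjusted p = 0.083), and against Soy-20% it was -0.25 ± 0.08 (adjusted p = 0.15).

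Glyctk, on the glycerate route, gave no call in any comparison. It ran from 1279 to 1570 in Cas-20% and from 1158 to 1661 in Cas-5%, and the diets overlapped widely. The log2 fold change was -0.02 (-0.20 to 0.15 at 2 SE either side, adjusted p = 0.88). Its diet means, between 1385 and 1615, were within 1.17-fold of each other. The value of Soy-10% against Soy-20% + SAA was -0.10 ± 0.12 (adjusted p = 0.57), and 0.22 without livers 3 to 6 (adjusted p = 0.3).

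**Figure D2:**
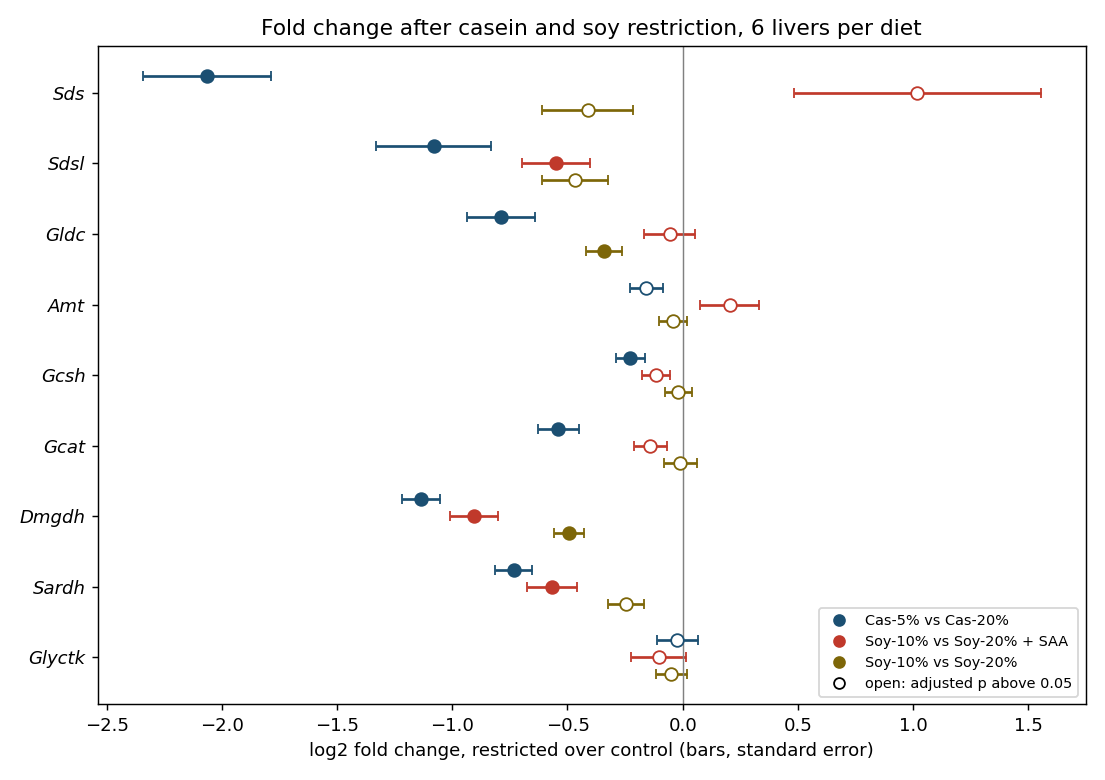
Log2 fold change of each enzyme (horizontal axis, with bars of 1 SE) for casein restriction and for soy restriction against either soy control, 6 livers per diet. Filled points have an adjusted p of 0.05 or less, and only Dmgdh is filled in all 3 comparisons, from -1.13 in casein to -0.49 in Soy-10% against Soy-20%.

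Soy restriction was read against each soy control in turn. Against Soy-20% + SAA, 3 of the 9 genes were lower (Sdsl, Dmgdh and Sardh) and none higher, where 15.7% of genes were called and 8.25% lower, with a median log2 fold change of -0.12 over the members and -0.01 over all genes. Only Dmgdh kept its call without livers 3 to 6, where 331 of all genes were called in place of 1880. Against Soy-20%, 2 were lower (Gldc and Dmgdh) and none higher, where 1% of genes were called and 0.622% lower, with a median of -0.25 over the members and 0.00 over all genes. Non-overlap was found for 1 member, Dmgdh, in each comparison, beside 3.31% and 0.748% of all genes that lay lower without overlap. The 2 comparisons share the Soy-10% livers.

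Whether casein and soy restriction differed in effect was tested gene by gene as the casein log2 fold change minus the soy one, in 24 livers. Protein fell from 20% to 5% with casein and from 20% to 11.5% with soy. Protein source and depth of restriction therefore cannot be told apart. With Soy-20% + SAA as the soy control, Sds (-3.09 ± 0.62, adjusted p = 0.0057), Gldc (-0.74 ± 0.19, adjusted p = 0.02) and Gcat (-0.41 ± 0.12, adjusted p = 0.03) had casein values below their soy values. The soy value of Sds was the 1.02 given before. These were 3 of 9 members, where 8.16% of genes were called and 5.07% in that direction. Without livers 3 to 6, Sds was at -2.10 (adjusted p = 0.018), Gcat at -0.51 (adjusted p = 0.043) and Gldc at -0.57 (adjusted p = 0.2; -0.59 and 0.11 with the GC slope as covariate), while Dmgdh moved from -0.24 (adjusted p = 0.26) to -0.51 (adjusted p = 0.035). Sardh, at -0.17 (adjusted p = 0.46), was -0.45 without them (adjusted p = 0.1) and passed at -0.41 with the GC slope (adjusted p = 0.044). Sdsl, at -0.54 (adjusted p = 0.25), was -0.66 without them (adjusted p = 0.4) and passed at -0.96 with a replicate block and the GC slope (adjusted p = 0.036). The Gcat call was lost in 5 of 24 fits that each left out 1 liver, those without Cas-20% livers 2 and 3, Cas-5% liver 4, Soy-20% + SAA liver 6 and Soy-10% liver 2, with adjusted p between 0.051 and 0.059 and values between -0.39 and -0.34. Amt, at -0.37 (adjusted p = 0.12), was called in 1 of the 24, without Soy-20% + SAA liver 2 (-0.46, adjusted p = 0.028).

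With Soy-20% as the control, which leaves out the libraries with the GC trend, Sds differed by -1.66 ± 0.34 (adjusted p = 0.0051), Gcat by -0.54 ± 0.12 (adjusted p = 0.0045), Dmgdh by -0.65 ± 0.10 (adjusted p = 0.00019) and Sardh by -0.49 ± 0.11 (adjusted p = 0.0074). These 4 of 9 stood beside 5.88% of genes called and 3.5% in that direction. Both sets of differences share the Cas-20%, Cas-5% and Soy-10% livers. Sds against Soy-20% was not called in a fit over all 30 livers (-1.66, adjusted p = 0.1). The methionine of Soy-20% was already low, at 0.22% by weight, so that this soy comparison spans less methionine than the casein one. Gldc (-0.45 ± 0.17, adjusted p = 0.12) and Gcsh (-0.21 ± 0.08, adjusted p = 0.12) did not pass.

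The restricted diets, near each other in methionine (0.15% and 0.13%), were compared directly. They differed in protein source and also in amount, with 5% casein against 11.5% soy protein, and these cannot be told apart. Of the 9 genes, 5 were lower in Cas-5% than in Soy-10% and none higher, where 10.7% of genes were called and 6.13% lower. Sds differed by -0.73 ± 0.13 (adjusted p = 0.002), and 5 of the 6 Cas-5% values were under the lowest of Soy-10%. In a fit over all 30 livers, where the spread of Cas-20% and Soy-20% + SAA enters, Sds was at -0.74 (adjusted p = 0.31). Gcsh differed by -0.28 (adjusted p = 0.0017), Gcat by -0.28 (adjusted p = 0.0049), Dmgdh by -0.34 (adjusted p = 0.004) and Sardh by -0.31 (adjusted p = 0.0066). Gcsh, Gcat and Dmgdh showed no overlap of diets, against 4.09% of all genes lower without overlap. The median of the 9 was -0.28, and that of all genes 0.01. Gldc had a value of -0.29 (adjusted p = 0.2), which became -0.44 (adjusted p = 0.0021) without Cas-5% liver 1.

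Adding methionine and cysteine to the 20% soy diet gave no call among the 9 genes by edgeR, where 0.545% of genes were called. At an unadjusted p under 0.05 there were 4, for which no share of all genes is given here. DESeq2 called 1, Dmgdh. A fit over all 30 livers called 3, Sds, Dmgdh and Sardh (adjusted p = 0.021, 0.0053 and 0.022). These 2 alternatives called more of all genes too, 873 and 1768 against 65 in the main test. The values were -1.43 ± 0.57 for Sds (adjusted p = 0.16), -0.29 ± 0.11 for Gldc (adjusted p = 0.14), 0.40 ± 0.11 for Dmgdh (adjusted p = 0.072) and 0.31 ± 0.10 for Sardh (adjusted p = 0.1). Without Soy-20% + SAA liver 1 they passed for Sds (-1.93, adjusted p = 0.043), Dmgdh (0.47, adjusted p = 0.0098) and Sardh (0.38, adjusted p = 0.014), and without liver 2 for Dmgdh (0.42, adjusted p = 0.042). Without livers 3 to 6 they were -0.44, -0.12, 0.13 and 0.04 for Sds, Gldc, Dmgdh and Sardh, with adjusted p between 0.87 and 0.97.

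**Figure D3:**
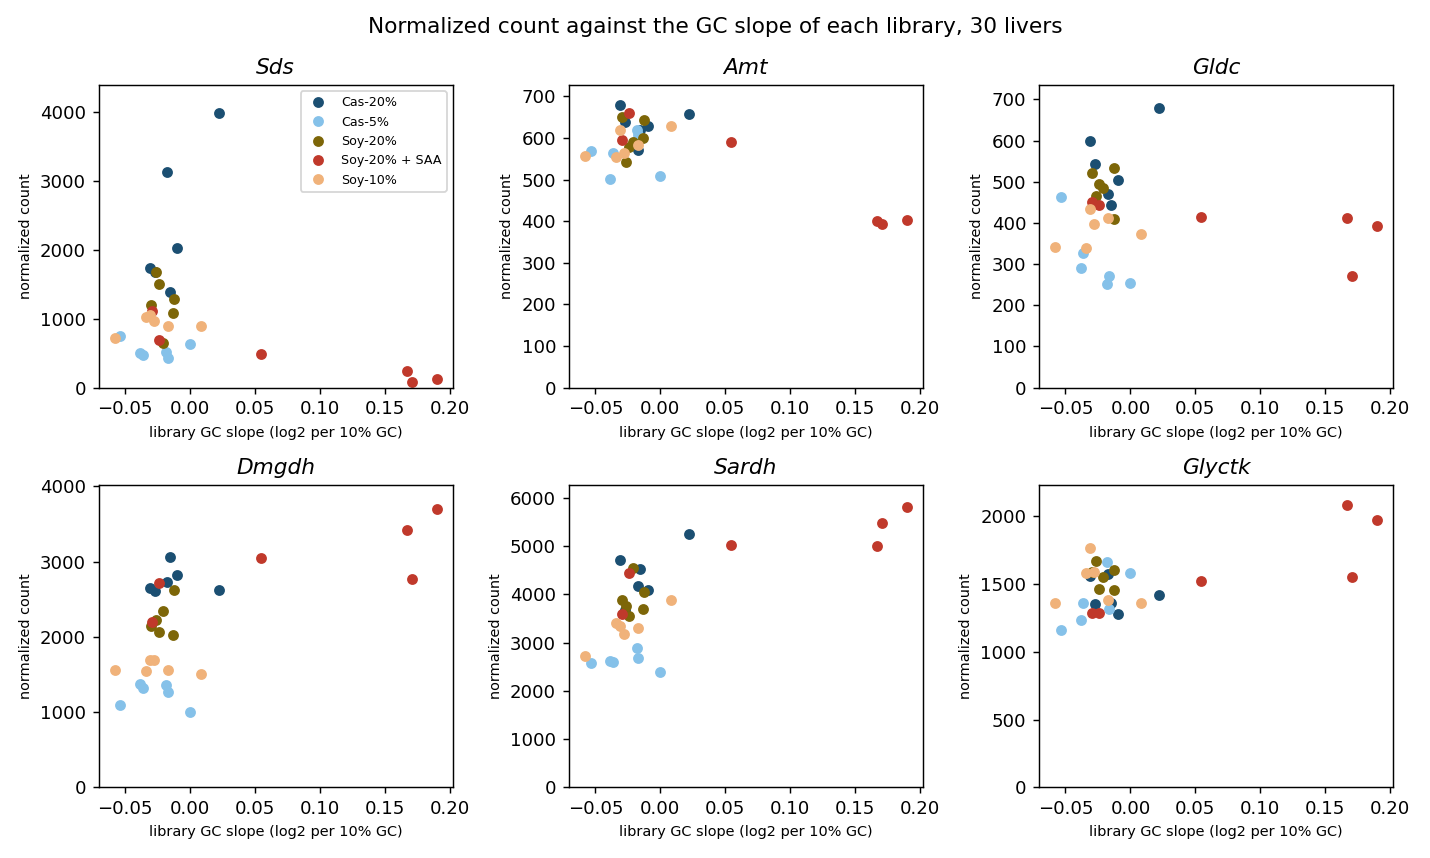
Normalized count of 6 enzymes (vertical axis, linear from 0) against the GC slope of each library in log2 units per 10% GC (horizontal axis), 30 livers coloured by diet. The 4 Soy-20% + SAA livers to the right, at 0.0543 to 0.19, hold the lowest Amt values in 3 of 4 and Sds values of 85.29 to 481.1.

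Between the diets with the most methionine, Cas-20% and Soy-20% + SAA, no member was called by edgeR, where 2.34% of genes were. At an unadjusted p under 0.05 there were 4, for which no share of all genes is given here. DESeq2 called 2, Sds and Gldc. A fit over all 30 livers called 4, Sds, Gldc, Amt and Gcsh (adjusted p = 0.001, 0.015, 0.023 and 0.028). These 2 alternatives called more of all genes too, 1135 and 2298 against 281 in the main test. Sds was also called without robust estimation (adjusted p = 0.04) and with a replicate block (adjusted p = 0.03), and Sdsl with the block and the GC slope (adjusted p = 0.023). Sds differed by 2.35 ± 0.60 (adjusted p = 0.059), with every Cas-20% liver above every Soy-20% + SAA liver, as for 1.5% of all genes, and Gldc by 0.45 ± 0.13 (adjusted p = 0.063). Both passed without Soy-20% + SAA liver 1 (2.84, adjusted p = 0.016 and 0.48, adjusted p = 0.029) and without liver 2 (2.50, adjusted p = 0.047 and 0.48, adjusted p = 0.042), and Amt (0.32, adjusted p = 0.14) passed without liver 2 (0.41, adjusted p = 0.047). With livers 3 to 6 left out, the values were 1.36 for Sds (adjusted p = 0.68), 0.27 for Gldc (adjusted p = 0.74) and 0.01 for Amt (adjusted p = 0.99).

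Over all 5 diets, 7 of the 9 genes differed in a single test over 30 livers, where 43% of all genes did. Amt (adjusted p = 0.074) and Glyctk (adjusted p = 0.3) did not. Without Soy-20% + SAA livers 3 to 6 the same 7 differed, and Amt (adjusted p = 0.24) and Glyctk (adjusted p = 0.23) did not. The lowest mean was in Cas-5% for 7 genes and in Soy-20% + SAA for Sds and Amt. The highest mean was in Cas-20% for Sds, Sdsl, Gldc, Amt and Gcat, and in Soy-20% + SAA for Gcsh, Dmgdh, Sardh and Glyctk. The order changed with the 4 livers left out. The Soy-20% + SAA means of livers 1 and 2 were then 902.9 for Sds and 628.4 for Amt, no longer the lowest, and 2456 for Dmgdh and 4009 for Sardh, below Cas-20%. For Glyctk that mean was 1286, the lowest of the 5, and for Gcsh 1059, still the highest. Neighbours in the order over all livers often did not differ beyond their spread, as for Dmgdh in Soy-20% + SAA (2977 ± 537.9, SD, n = 6) and Cas-20% (2751 ± 172.2).

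The other genes of glycine, serine and threonine metabolism, 23 of a list of 24, moved in both directions. With casein restriction 4 were higher and 12 lower, where 24.6% of all genes were called and 13.2% lower. The higher ones included serine synthesis enzymes, with Psat1 at a log2 fold change of 5.02 ± 0.17 (adjusted p = 5.2e-13) and Psph at 1.10 ± 0.12 (adjusted p = 1.4e-06). The lower ones included Agxt, the alanine-glyoxylate aminotransferase (mean normalized count 315 against 1280, adjusted p = 9.2e-12), Gnmt, which methylates glycine to sarcosine (-1.68 ± 0.10, adjusted p = 1.4e-09), and Shmt1, which interconverts serine and glycine in the cytosol (-0.60 ± 0.07, adjusted p = 5.2e-06). Agxt2 (-0.97), Bhmt2 (-0.93) and Aldh7a1 (-0.79) were lower as well.

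With soy restriction against Soy-20% + SAA, 22 of these genes could be tested and 4 were higher and 10 lower. Over all genes, 15.7% were called and 8.25% lower. Gnmt had a log2 fold change of -0.75 ± 0.08 (adjusted p = 0.00017), Agxt2 of -0.70 ± 0.08 (adjusted p = 2e-04) and Psat1 of 3.60 ± 0.41 (adjusted p = 2e-04). Bhmt, which makes dimethylglycine from betaine, was at -1.76 ± 0.20 (adjusted p = 0.00038). Without Soy-20% + SAA livers 3 to 6, 1 was higher and 5 lower of 22, where 331 of all genes were called in place of 1880. Gnmt (-0.60, adjusted p = 0.0013), Agxt2 (-0.59, adjusted p = 0.0018) and Bhmt (-1.34, adjusted p = 0.001) were then still called, and Psat1 was not (3.30, adjusted p = 0.077). Against Soy-20%, 1 was higher (Psat1, 2.87 ± 0.38, adjusted p = 0.0024) and 4 were lower, namely Bhmt (-1.13 ± 0.15, adjusted p = 0.0037), Gnmt (-0.40 ± 0.07, adjusted p = 0.0041), Aldh7a1 (-0.26 ± 0.05, adjusted p = 0.022) and Bhmt2 (-0.27 ± 0.06, adjusted p = 0.043). Over all genes, 1% were called against Soy-20% and 0.622% lower. In Cas-5% against Soy-10%, 3 were higher and 11 lower of 23, where 10.7% of all genes were called and 6.13% lower. Gnmt was at -0.71 ± 0.07 (adjusted p = 1.3e-06) and Phgdh, the first enzyme of serine synthesis, at a mean normalized count of 37.8 against 2.9 (adjusted p = 4.9e-05). Aldh7a1 (-0.38 ± 0.06, adjusted p = 0.00013) and Agxt2 (-0.42 ± 0.07, adjusted p = 0.00035) came next. Gnmt and Bhmt, which supply sarcosine and dimethylglycine, and Sardh and Dmgdh, which use them, were lower with casein restriction. Bhmt2 (-0.93) and Aldh7a1 (-0.79) were lower as well, while Pipox and Chdh were not. Pipox, which also uses sarcosine, was not called (-0.05 ± 0.10, adjusted p = 0.76), and Chdh, upstream of betaine, was higher (0.28 ± 0.06, adjusted p = 0.002). For that comparison Bhmt (-2.69 ± 0.24, adjusted p = 1e-05), Pipox and Chdh were named after their values were seen.

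**Figure D4:**
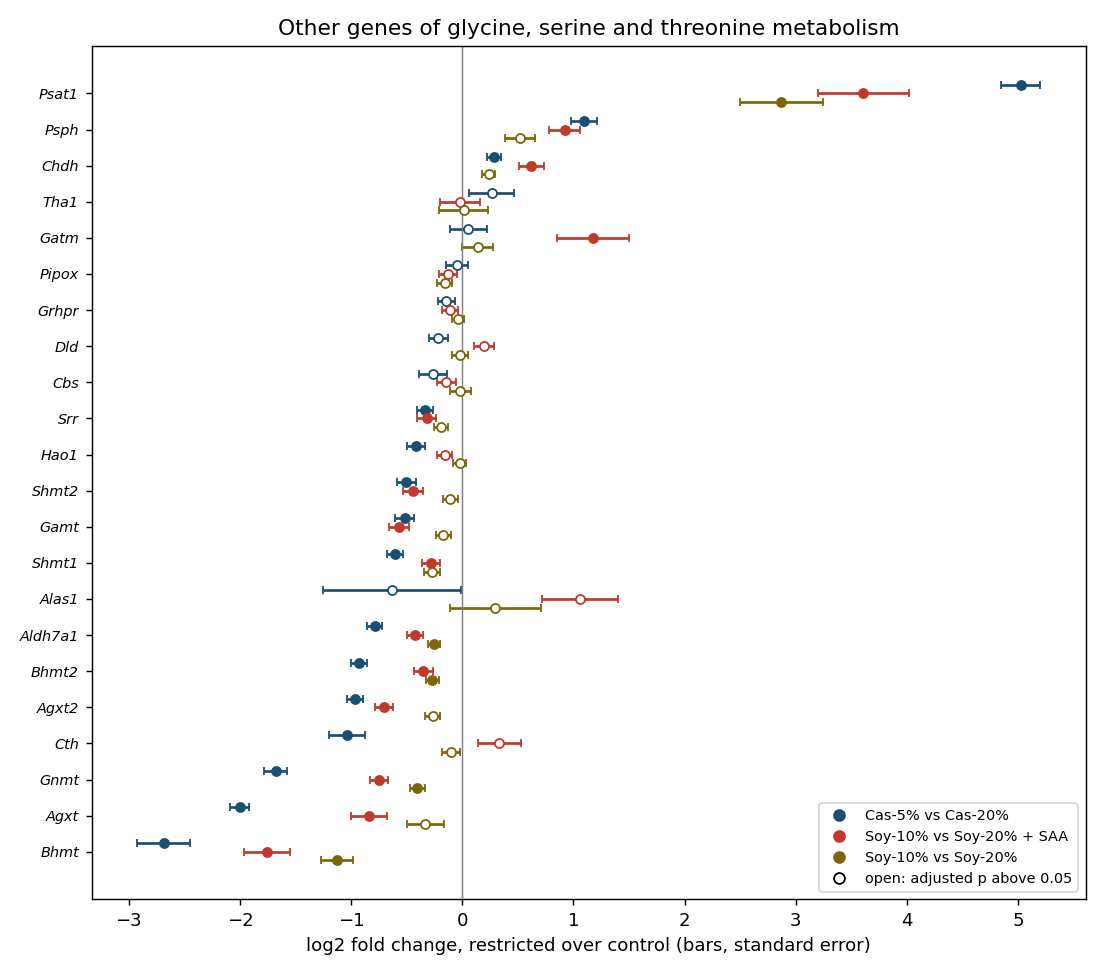
Log2 fold change (horizontal axis, with bars of 1 SE) of 22 other genes of the pathway for the same 3 comparisons, 6 livers per diet. Filled points have an adjusted p of 0.05 or less. Phgdh, at 0 in every Cas-20% liver, is not drawn. Psat1 is farthest to the right in all 3 comparisons, from 2.87 to 5.02, and Bhmt farthest to the left, from -2.69 to -1.13.

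Across the 30 livers, Spearman's rho was 0.90 between Dmgdh and Sardh and 0.78 between Sds and Gldc. Among Sdsl, Gcat, Dmgdh and Sardh the other 5 values lay between 0.65 and 0.70. It was 0.14 between Sds and Sardh and -0.02 between Sds and Gcsh. Without Soy-20% + SAA livers 3 to 6, over 26 livers, it was 0.88 between Dmgdh and Sardh and 0.81 between Sds and Gldc. Sds had higher values there with Dmgdh (0.74, against 0.19 over 30 livers), Sdsl (0.83, against 0.49), Sardh (0.69), Gcat (0.80) and Gcsh (0.37). Its value with Amt was lower (0.39, against 0.54 over 30 livers). Pairs without Sds changed too, as for Amt and Sardh (0.66, against 0.19). The points share libraries, diet and the GC trend, and the values are a description. Of 12560 genes, those most like Sds were Fh1 (rho 0.93), Mlx (0.92) and Uox (0.91), and those most like Gldc were Cps1 (0.85), Kmo (0.84) and Aco1 (0.83). Gcat was nearest to Fam3c (0.87), Qdpr (0.84) and Haao (0.82), and Sardh to Hsd17b10 (0.96), Ak3 (0.96) and Got2 (0.96). Over the 26 livers the values of these 12 genes lay between 0.81 and 0.96.

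Markers of hepatocyte zones moved with casein restriction too. The shares of all genes called were 24.6% for casein restriction and 10.7% for Cas-5% against Soy-10%. For Soy-10% they were 15.7% against Soy-20% + SAA and 1% against Soy-20%. Of 6 periportal markers, 4 were lower in Cas-5% than in Cas-20% and none higher, with a median log2 fold change of -0.92, and their summed normalized count ran from 35690 to 51100 in Cas-20% and from 23520 to 32290 in Cas-5%. Of 7 pericentral markers, 4 were lower and 1 higher, with a median of -0.33 and sums of 46310 to 68450 and 42770 to 48060. In Cas-5% against Soy-10%, 4 of 6 periportal markers were lower, with a median of -0.65, 2 of 7 pericentral markers were higher and 1 lower, and 3 of 5 stellate markers were higher, with a median of 0.30. In Soy-10% against Soy-20% + SAA, 2 of 6 periportal markers were lower (median -0.08), and 4 of 7 pericentral markers were lower and 1 higher (median -0.26). Without livers 3 to 6 these were 1 of 6 lower (median -0.16), and 1 of 7 higher and none lower (median -0.25). In Soy-10% against Soy-20%, 2 of 6 periportal markers were lower (median -0.23), and none of 7 pericentral markers was called (median -0.01). Red blood cell, stellate and adipocyte lists had 1 call each with casein restriction, the immune and bile duct lists none, and the acinar list 1 of the 1 gene tested. The part of these cells in the results for the breakdown enzymes was not tested.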

How the data were processed

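RNA from 30 mouse livers was made into 3′ end libraries (QuantSeq) and sequenced. The study's methods name Lexogen's forward QuantSeq pipeline, run on Bluebee, for mapping and for the count tables. The aligner inside it, its strand setting and the annotation release are not given in the sources used here. The authors deposited raw counts per gene without normalization, and a second table of the same values as a normalized signal, in which each library was divided by its DESeq2 size factor. The submitters' processing notes name R 4.0.3 and DESeq2 1.30. Gene length scaling was not applied. Levels of different genes were not tested against each other.

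Livers were grouped by the diet in their titles. Counts were tested in R 4.3.3 with edgeR 4.0.16 (filterByExpr, TMM, robust quasi-likelihood F test, Benjamini-Hochberg adjustment over all genes, threshold 0.05), fitting the 2 diets compared, 24 livers for differences of effects or 30 for the test over diets. P-values treat mice as replicates. Lowest, median and highest values are from the normalized table. Log2 CPM for rank correlations used a prior count of 2. The GC slope is the regression of a library's log2 deviation on the GC content of the last 200 nt of transcripts (12479 genes). DESeq2 1.42.0 was an alternative. Annotation was GENCODE M21, promoters RefSeq GRCm38.p6, and scripts used Python 3.11.15, numpy 2.4.6, pandas 2.3.3 and matplotlib 3.10.9.

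All members are named. Of 24 other pathway genes, at most 8 per comparison were named, by smallest adjusted p, apart from Bhmt, Pipox and Chdh for casein restriction. The 3 genes most like each of Sds, Gldc, Gcat and Sardh are those with the highest Spearman's rho. Members and lists were chosen with earlier results of these data known. Alternatives were other size factors, filters, a fit over 30 livers, DESeq2, the GC slope as a covariate, a replicate block, a log2 fold change threshold of 1, leaving out Soy-20% + SAA livers 3 to 6 and leaving out each liver. Leaving out livers 3 to 6 for the marker and pathway lists, the order of means and the correlations was chosen after seeing the data. No pair of livers of a diet was a duplicate, since the lowest chi-square per gene over 75 pairs was 6.58.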

Additional observations from a re-analysis of the deposited data

Results flagged for a closer look

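Of 45 groups of 6 livers (9 genes in 5 diets), 2 had a liver far from the other 5 by Dixon's test, and chance flags about 1 in 20 groups. Gldc stood at 462 in Cas-5% liver 1, with the nearest liver at 326.9. It stood at 270.3 in Soy-20% + SAA liver 4, with the nearest at 393.2.

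The other values here are effects of restriction that differed between casein and soy by the test of the difference itself. Taken against Soy-20% + SAA, it was -3.09 for Sds, -0.74 for Gldc and -0.41 for Gcat (adjusted p = 0.0057, 0.02 and 0.03). Taken against Soy-20%, it was -1.66 for Sds, -0.54 for Gcat, -0.65 for Dmgdh and -0.49 for Sardh (adjusted p = 0.0051, 0.0045, 0.00019 and 0.0074). The 4 Soy-20% + SAA libraries with the GC trend enter the first set of values and not the second. With the GC slope as covariate, the first set was -2.55 for Sds, -0.47 for Gcat and -0.59 for Gldc (adjusted p = 0.005, 0.027 and 0.11). The Gldc call was thus lost. The cause of these shifts was not tested.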

How the results depend on the processing

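Calls for casein restriction held at 6 or 7 genes under all alternatives that kept the threshold on p alone. With an absolute log2 fold change of at least 1, the calls were 3 for casein restriction, 0 for Soy-10% against either control, 0 for Cas-5% against Soy-10%, and 1 for each difference of effects. For that threshold no share of all genes is given here. Soy-10% against Soy-20% + SAA had 1 call with the GC slope as covariate and 1 without livers 3 to 6. Soy-10% against Soy-20% had 1 in the fit over all 30 livers, 1 with the GC slope and 1 by edgeR without robust estimation, an alternative chosen after seeing the data. Soy-20% + SAA against Soy-20% had 1 by DESeq2 and 3 in the fit over all 30 livers, and Cas-20% against Soy-20% + SAA had 2 and 4, and 1 without robust estimation. Fits leaving out 1 liver gave 1 to 3 calls for Soy-10% against Soy-20%, and 0 to 3 for each of Soy-20% + SAA against Soy-20% and Cas-20% against Soy-20% + SAA. Livers were not left out one at a time for the difference with the Soy-20% control or the test over 5 diets. Sds lost its call in the fit over all 30 livers for Cas-5% against Soy-10% (adjusted p = 0.31) and for the difference with the Soy-20% control (adjusted p = 0.1). Gcsh lost its call for casein restriction with the block and the GC slope (-0.238, adjusted p = 0.052). The cause was not tested.

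Replicate numbers did not pair the livers, since same-numbered livers had correlations from -0.155 to 0.183 over 6 pairs. With a replicate block, Cas-20% against Soy-20% + SAA had 1 call, and with the block and the GC slope there was 1 call each for that comparison, Soy-10% against Soy-20% + SAA and Soy-10% against Soy-20%.

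Directions turned only for values that had not been called. With the GC slope as covariate, Glyctk was at 0.023 for casein restriction, 0.2 for Soy-10% against Soy-20% + SAA, -0.25 for Soy-20% + SAA against Soy-20%, 0.087 for Cas-20% against Soy-20% + SAA and -0.204 for the difference of effects. Amt was at -0.112 for Soy-10% against Soy-20% + SAA and 0.079 for Soy-20% + SAA against Soy-20%, Sdsl at -0.127 for the latter, Gcat at 0 for Soy-10% against Soy-20%, and Dmgdh at 0.097 and Sardh at 0.084 for Cas-20% against Soy-20% + SAA. With the block and the slope, in the same order of comparisons, Glyctk was at 0.048, 0.334, -0.21, 0.078 and -0.234, Amt at -0.118 and 0.017, Gcat at 0.02, Dmgdh at 0.063 and Sardh at 0.085. Without Soy-20% + SAA livers 3 to 6, Glyctk was at 0.22, -0.272, 0.141 and -0.25, Amt at -0.112 and 0.065, Sdsl at -0.044, Dmgdh at 0.16 and Sardh at 0.132. Fits leaving out 1 liver gave Glyctk between -0.083 and 0.022 for casein restriction, between -0.034 and 0.101 for Soy-20% + SAA against Soy-20% and between -0.009 and 0.132 for the difference of effects. They gave Gcsh between -0.038 and 0.016 and Gcat between -0.053 and 0.027 for Soy-10% against Soy-20%, and Sdsl between -0.007 and 0.174 for Soy-20% + SAA against Soy-20%.

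Counts over all genes depended on the fit where Soy-20% + SAA was involved. Soy-20% + SAA against Soy-20% gave 65 calls, 873 by DESeq2, 1768 in the fit over all 30 livers, 1 without robust estimation, and 0 with the GC slope or without livers 3 to 6. Cas-20% against Soy-20% + SAA gave 281, and 1135, 2298, 291, 6 and 2. Soy-10% against Soy-20% + SAA gave 1880, and 3052 over all 30 livers, 378 with the slope and 331 without livers 3 to 6. Soy-10% against Soy-20% gave 119, with 217 by DESeq2 and 64 over all 30 livers. The difference of effects gave 1023, with 520 and 280 under the slope and without livers 3 to 6. The test over 5 diets gave 5401, with 3519 and 3392. Sdsl was counted at 28.82 to 156 normalized counts in the casein diets, which limits its precision.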
